A study of Mus musculus with 29 samples.

Results

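The antiviral interferon response was followed through the cells of the mouse brain and blood after an experimental stroke, with 8 of its target genes. The 8 genes were Ifit1, Ifit2, Ifit3, Isg15, Rsad2, Oasl2, Usp18 and Ifi27l2a, chosen by name, and all 8 were measured in each of the 29 libraries, out of 19704 genes in the tables of young brain, 27514 in those of aged brain and 16623 in those of blood. Each level is given in CPM, a gene's counts scaled to a common library total, from counts summed over all cells of 1 type in 1 library. The type names follow the coarser cell codes that the authors deposited.

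Drop-seq, which reads the transcripts of single cells caught in droplets with barcoded beads, was applied to mice whose middle cerebral artery had been blocked for a time (stroke) and to sham-operated mice, all C57BL/6J. The young brain libraries, from males of 8 to 10 weeks, comprised 4 sham (taken on day 2), 4 day 2 stroke and 4 day 14 stroke libraries. The aged brain libraries, from both sexes at 17 to 20 months, comprised 2 sham (day 2), 3 day 2 stroke and 1 day 14 stroke library, and those of blood from young males 4 sham (day 2), 4 day 2 stroke and 3 day 14 stroke libraries. A brain library held sorted CD45-high leukocytes, microglia and endothelial cells from 4 to 5 pooled hemispheres, dissociated with inhibitors of transcription, and a blood library held leukocytes of 2 pooled mice. No sham group of day 14 was among the samples, so days since surgery and stroke cannot be told apart in comparisons of day 14 with sham, and in the aged groups age and sex composition cannot be told apart when they are set beside the young males.

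Type I interferons are secreted when a cell senses foreign or misplaced nucleic acid, and they act through the receptor chains Ifnar1 and Ifnar2. The receptor signals through the kinases Jak1 and Tyk2 to transcription factors that bind the interferon-stimulated response element in the promoters of target genes, while Irf7 amplifies the response. In the brain, microglia and endothelial cells can both respond, and interferon-responsive microglia are known from ageing, injury and neurodegeneration. Ifit1, Ifit2 and Ifit3 encode tetratricopeptide proteins that bind viral RNA or each other, and Isg15 encodes a ubiquitin-like protein that is attached to other proteins. Rsad2 (viperin) makes a chain-terminating nucleotide, Oasl2 is a relative of the oligoadenylate synthetases, Usp18 removes Isg15 from proteins and dampens signalling at Ifnar2, and Ifi27l2a is a small interferon-induced membrane protein.

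The promoters of these genes were searched for elements that interferon-driven factors recognise. Of the 8 genes, 6 matched the RefSeq promoter windows of GRCm38.p6, in 7 windows, and Usp18 and Ifi27l2a did not match. The 250 bases before each start were searched on both strands for the core of the interferon-stimulated response element, GAAA and again GAAA after any 2 bases, and for the interferon-gamma activated site, TTC and GAA with any 3 bases between them. The first was present in 4 of the 7 windows, each of another gene, against 978 of 32851 windows of the same length over all genes (2.98%), and 3 of the 7 held more than 1 copy, against 59 windows (0.18%). The 4 windows with the core are shown in part because they hold the element, 5′ to 3′ on the gene's strand, with the matches in capitals.
Ifit1, chr19:34640689-34640888, plus strand: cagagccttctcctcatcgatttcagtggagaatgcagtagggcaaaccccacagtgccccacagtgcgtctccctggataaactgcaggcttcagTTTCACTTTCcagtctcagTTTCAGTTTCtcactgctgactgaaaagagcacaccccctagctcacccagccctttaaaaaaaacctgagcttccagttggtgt
Ifit3, chr19:34583329-34583528, plus strand: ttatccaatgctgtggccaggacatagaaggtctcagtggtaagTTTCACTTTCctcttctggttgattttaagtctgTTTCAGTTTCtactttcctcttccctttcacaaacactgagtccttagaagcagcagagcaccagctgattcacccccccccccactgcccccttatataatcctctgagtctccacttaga
Isg15, chr4:156200819-156201018, minus strand: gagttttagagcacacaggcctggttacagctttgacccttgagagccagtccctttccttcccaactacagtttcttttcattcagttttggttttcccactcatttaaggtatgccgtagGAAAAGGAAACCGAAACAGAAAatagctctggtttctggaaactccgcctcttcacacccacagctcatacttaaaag
Rsad2, chr12:26456453-26456652, minus strand: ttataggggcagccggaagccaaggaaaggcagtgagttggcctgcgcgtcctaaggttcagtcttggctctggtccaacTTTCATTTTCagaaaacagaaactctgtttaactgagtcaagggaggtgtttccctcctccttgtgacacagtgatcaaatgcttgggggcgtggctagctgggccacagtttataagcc

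In Ifit1 and Ifit3 the element was read on the opposite strand, as 2 copies that began 104 and 85 bases before the start in Ifit1 and 156 and 122 bases before it in Ifit3. In Isg15 3 overlapping copies, at 78, 72 and 66 bases, formed 1 run. Rsad2 held 1 copy at 120 bases, also read on the opposite strand. The searched bases of Ifit2 (2 windows) and of Oasl2 did not hold these letters, and the interferon-gamma activated site was found in Ifit2 alone, at 241 bases, while 2306 of all 32851 windows (7.02%) held it. These matches describe the letters only, since no binding was measured. The start is that of each window, which is not always the outer end of the gene. The searched bases of Ifit3, and at least part of those of Ifit2 and Oasl2, lay inside the gene spans that follow. Ifit2 (19:34550550-34576534), Ifit3 (19:34583119-34588982) and Ifit1 (19:34640889-34650009) lie in 1 cluster on chromosome 19. Ifit3b, a near-identical copy of Ifit3, lies between them (19:34607530-34613403). Isg15 is at 4:156199424-156200818, Oasl2 at 5:114896926-114912245, Usp18 at 6:121245906-121270917, Rsad2 at 12:26442743-26456452 and Ifi27l2a at 12:103433873-103443680. The files held 5122 counts of Ifit3 and 1169 of Ifit3b in brain, and reads of one copy may have been counted for the other, so values of Ifit3 are uncertain to that extent.

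The 18 brain libraries held 1143 to 5121 cells and 819438 to 5855047 counts each, and the 11 blood libraries 2360 to 6328 cells and 966914 to 5232662 counts, and a typical cell held 321 to 1363 counts (library medians) in brain and 341 to 694 in blood. Any pair of libraries shared at most 7 cell barcodes. The cells with the codes Mg, EC, MdC, BAM, Gran, Tc, Bc and NK in brain and Mo, Neu, Tc, Bc and NK in blood had the marker list of microglia, endothelial cells, monocyte-derived cells, border-associated macrophages, neutrophils, T, B and NK cells highest, and they are called so. The cells coded DC in both tissues had the monocyte list above the dendritic one and are called DC-coded cells. One library stood against its label: replicate 3 of stroke at day 2 held 58 cells coded as microglia, in which the microglial list summed to 820 CPM against a group median of 12466 CPM, and the list of monocyte-derived cells to 903 CPM. Microglial fold changes of the members between young groups and counts of called genes that involve day 2 are therefore given with and without it. In 5 of the 12 young brain libraries the median mitochondrial share was 0.235% to 0.559% of counts, against 1.67% to 3.38% in the other 7. Both kinds occurred in each young brain group, and the groups were also compared within each kind.

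In microglia, all 8 genes rose after stroke at day 2, and for 7 of them the mean stood higher still at day 14. The mean of Ifit1 was 31.2 CPM at day 2 and 30.5 CPM at day 14, but 20.9 CPM at day 2 without replicate 3. Fold changes are from the quasi-likelihood test of edgeR fitted over all genes of a type, with Benjamini-Hochberg adjusted p-values, and a gene was called at an adjusted p under 0.05. At day 2 against sham 8 of 8 members were called, where 31.4% of all 10145 genes tested were, and in 8 of 8 every stroke library lay above every sham library, which held for 11.4% of genes. At day 14 against sham 8 of 8 were called against 15.2% of genes, with no overlap in 8 of 8 against 5.80% of genes. Without replicate 3 of day 2 all 8 remained called at day 2, with log2 fold changes between 3.01 for Isg15 and 6.18 for Rsad2. In sums over cells, a higher level in each cell and a larger share of responding cells cannot be told apart, and shares of cells are given further on.

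The RNA-binding Ifit genes were near the limit of detection in microglia of sham mice. Ifit1 stood at 0.857, 0, 2.93 and 1.45 CPM in the 4 sham libraries, at 15.2, 27.5, 62.2 and 19.8 CPM at day 2 and at 38.0, 20.7, 43.9 and 19.4 CPM at day 14. The highest value at day 2 was that of replicate 3, and the ranges of days 2 and 14 overlapped, while neither touched sham. The log2 fold change against sham was 4.39 ± 0.65 (SE, adjusted p = 0.000397) at day 2, 4.27 without replicate 3, and 5.11 ± 0.62 (adjusted p = 9.58e-05) at day 14, with n = 4 libraries a group here and below. Ifit2 stood at 2.39, 2.04, 1.73 and 6.21 CPM in sham, at 45.1, 38.4, 113 and 72.4 CPM at day 2 and at 191, 88.1, 176 and 178 CPM at day 14. All but 1 of the day 14 libraries lay above all those of day 2. The log2 fold changes of Ifit2 against sham were 4.26 ± 0.43 (adjusted p = 2.76e-05; 4.20 without replicate 3) and 6.02 ± 0.43 (adjusted p = 1.77e-06). Ifit3 stood at 7.96, 1.99, 3.09 and 6.93 CPM in sham, at 48.5, 72.3, 157 and 102 CPM at day 2 and at 137, 88.8, 178 and 113 CPM at day 14. Its levels at the later 2 times overlapped, and it was 4.12 ± 0.42 (adjusted p = 3.03e-05; 4.06 without replicate 3) and 5.10 ± 0.42 (adjusted p = 3.8e-06) above sham on the log2 scale.

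Isg15, the ubiquitin-like modifier, stood at 23.9, 19.3, 23.9 and 13.6 CPM in sham microglia, at 128, 126, 462 and 171 CPM at day 2 and at 384, 182, 294 and 288 CPM at day 14. Replicate 3 was again the highest at day 2, and all stroke libraries lay above all of sham. Its log2 fold change was 3.23 ± 0.35 (adjusted p = 3.99e-05) at day 2, 3.01 without replicate 3, and 4.29 ± 0.35 (adjusted p = 3.5e-06) at day 14. Usp18, the protease that removes Isg15 again, stood at 3.80, 3.98, 4.56 and 0.682 CPM in sham, at 34.2, 22.2, 38.6 and 56.1 CPM at day 2 and at 62.7, 53.2, 98.7 and 63.3 CPM at day 14. All but 1 of the later libraries were above all those of day 2. Usp18 was 3.75 ± 0.46 (adjusted p = 9.65e-05; 3.77 without replicate 3) and 4.86 ± 0.45 (adjusted p = 8.6e-06) above sham. Among the partners of Isg15, the conjugating enzyme Ube2l6 rose by 2.17 (adjusted p = 0.00333) at day 2 and by 2.90 on the log2 scale at day 14, and the activating enzyme Uba7 fell by 0.87 (adjusted p = 0.0391) at day 2, and without replicate 3 the day 2 values of Ube2l6 and Uba7 were 2.03 and -0.82, both still called. The ligase gene Herc6 rose by 1.16 at day 14.

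Rsad2 and Oasl2 were all but absent from sham microglia, with 2 and 3 counts in 5597550. Rsad2 stood at 0, 0, 1.94 and 0 CPM in sham, at 33.3, 28.6, 23.1 and 27.9 CPM at day 2 and at 128, 62.7, 58.7 and 61.9 CPM at day 14, so that every library of day 14 lay above every library of day 2. From pooled counts its level was 81.9 times that of sham at day 2 (95% counting interval 22.2 to 684) and 235 times at day 14 (64.7 to 1944), and the fit gave adjusted p-values of 3.86e-05 and 3.06e-06. Without replicate 3 the ratio of Rsad2 at day 2 was 81.8 (22.2 to 683). Oasl2 stood at 0.0607, 1.54, 0 and 0 CPM in sham, at 50.1, 10.9, 76.3 and 33.1 CPM at day 2 and at 123, 91.4, 110 and 92.2 CPM at day 14. It too separated the 3 groups without overlap. Its pooled level was 63.9 times that of sham (21.5 to 313) and 200.1 times (68.2 to 973), with adjusted p-values of 6.53e-05 and 3.93e-06. Without replicate 3 the ratio of Oasl2 at day 2 was 63.5 (21.3 to 311). Ifi27l2a, the membrane protein, stood at 24.9, 12.2, 11.8 and 7.98 CPM in sham, at 524, 292, 1753 and 261 CPM at day 2 and at 1189, 1029, 1853 and 889 CPM at day 14. The value of 1753 CPM was that of replicate 3, and the other 3 libraries of day 2 were below all of day 14. The log2 fold change of Ifi27l2a was 5.42 ± 0.58 (adjusted p = 3.68e-05) at day 2, 4.80 without replicate 3, and 6.89 ± 0.60 (adjusted p = 6.27e-06) at day 14.

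**Figure D1:**
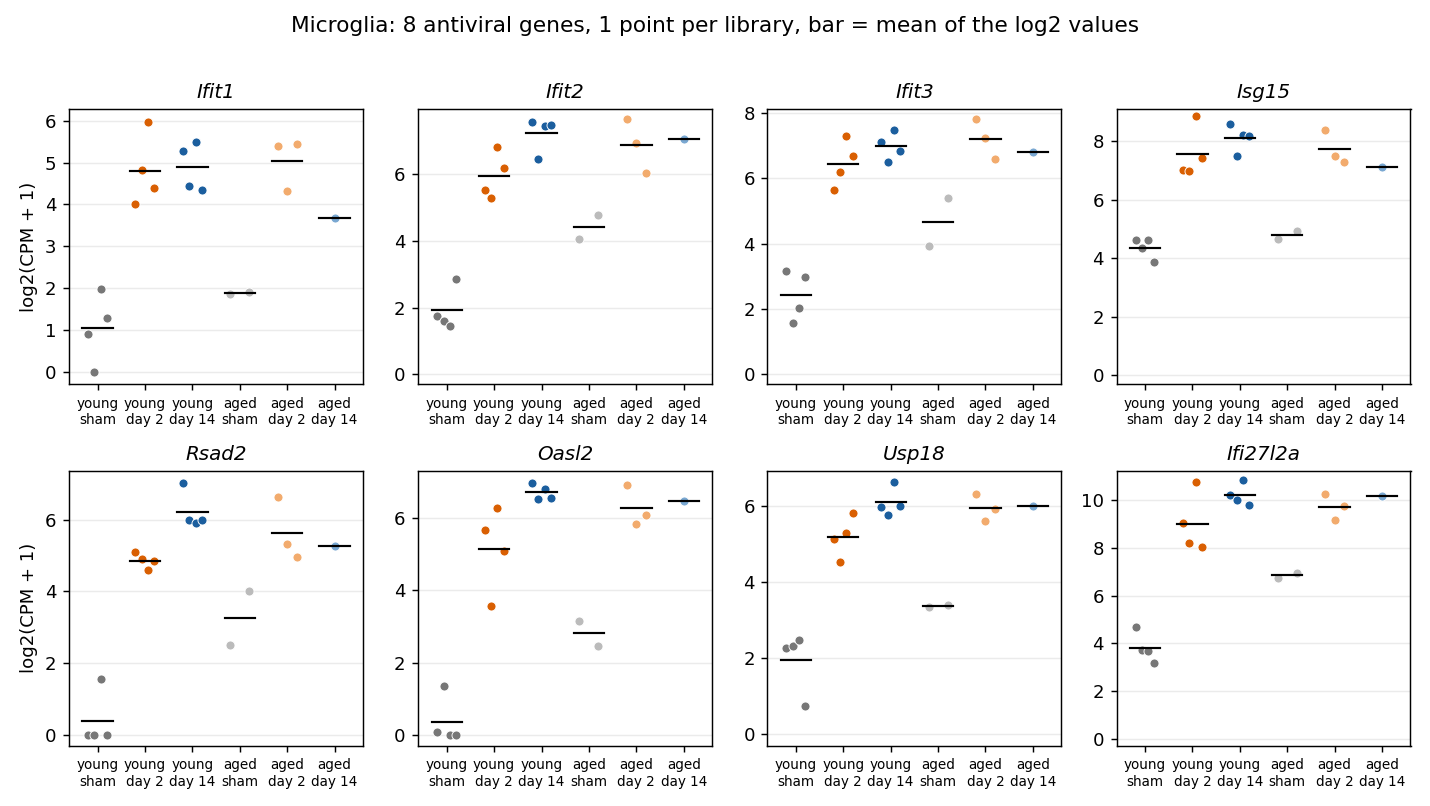
Each panel shows 1 gene in microglia, with log2(CPM + 1) on the y axis, 1 point per library and a bar at the mean of the log2 values. The young groups are sham day 2, stroke day 2 and stroke day 14, with 4 libraries each. The aged groups are sham day 2 (2 libraries), stroke day 2 (3) and stroke day 14 (1). In all 8 panels every young stroke library lies above every young sham library. For Rsad2 and Oasl2 the young libraries of day 14 also lie above the young ones of day 2.

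Between day 2 and day 14 the microglial levels rose further for Ifit2 (log2 fold change 1.77 ± 0.35, adjusted p = 0.00941), Rsad2 (1.65 ± 0.41, adjusted p = 0.0287) and Oasl2 (1.89 ± 0.45, adjusted p = 0.0229). These 3 of 8 compare with 6.93% of genes called, and the 2 members without overlap, Rsad2 and Oasl2, with 3.79% of genes. For the other 5 the difference was 0.72 for Ifit1, 0.98 for Ifit3, 1.05 for Isg15, 1.12 for Usp18 and 1.47 for Ifi27l2a, with adjusted p-values of 0.429, 0.116, 0.065, 0.0891 and 0.0832. Without replicate 3 of day 2, 5 members passed, as Isg15 (1.26, adjusted p = 0.023) and Ifi27l2a (2.08, adjusted p = 0.00889) joined the 3. The values were then 1.81 for Ifit2, 1.64 for Rsad2 and 1.93 for Oasl2, and 0.83 for Ifit1, 1.03 for Ifit3 and 1.09 for Usp18. No member passed without replicate 1 of day 2, 1 without replicate 4 of day 2 and 1 without replicate 1 of day 14, with the direction kept. For the 3 members called in the full fit, 8 of 24 values with 1 library left out lost the call. Over the other alternatives 1 of 24 did.

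Markers of monocyte-derived cells rose in the microglial sums as well. The 6 genes of that list summed to between 0.000207 and 23.4 CPM in sham microglia, to between 1.06 and 903 CPM at day 2 and to between 33.3 and 109 CPM at day 14, and no gene of the list was at 0 in all libraries. Relative to monocyte-derived cells of the same library this was at most 0.235% in sham, 0.0114% to 9.73% at day 2 (median 1.56%) and 0.377% to 1.67% at day 14. The members themselves stood at medians between 10.2% (Rsad2) and 64.2% (Ifit3) of the level in monocyte-derived cells at day 2, and between 11.4% (Rsad2) and 65.3% (Ifi27l2a) at day 14. The part of that list in the microglial values was not tested. The lack of overlap with sham holds by construction within the libraries of low mitochondrial share, which include 1 sham library, and within the others.

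In monocyte-derived cells the same genes rose from a higher starting level. The sham libraries held 43 to 99 such cells, and the sham values are correspondingly uneven. At day 2, 7 of 8 members were called against 6.71% of genes, and 8 of 8 at day 14 against 5.15%. Every stroke library lay above every sham library for 3 of 8 members at day 2 (8.44% of genes) and 8 of 8 at day 14 (7.62%). The 7 microglial markers in these cells summed to 0 to 606 CPM in sham, 270 to 762 CPM at day 2 and 371 to 2214 CPM at day 14, and their part in the result was not tested.

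Rsad2 showed the clearest step, from 17.0, 17.3, 21.7 and 0 CPM in sham to 417, 208, 229 and 271 CPM at day 2 and 700, 628, 484 and 580 CPM at day 14. The 3 groups did not overlap. Its log2 fold change was 4.42 ± 0.43 (adjusted p = 8.72e-05) at day 2 and 5.49 ± 0.42 (adjusted p = 5.21e-06) at day 14, and the rise of 1.06 ± 0.24 between the 2 times (adjusted p = 0.0375) was the single member called there, against 1.79% of genes. Oasl2 went from 43.7, 30.4, 16.0 and 39.4 CPM to 232, 92.3, 176 and 136 CPM and then to 274, 285, 276 and 316 CPM, again without overlap between groups. It was 2.45 ± 0.39 (adjusted p = 0.00155) above sham at day 2 and 3.29 ± 0.38 (adjusted p = 0.000197) at day 14. Isg15 stood at 166, 286, 68.8 and 547 CPM in sham, at 711, 445, 609 and 639 CPM at day 2 and at 1005, 1283, 860 and 783 CPM at day 14. Its highest sham library exceeded the lowest of day 2, and the log2 fold changes were 1.81 ± 0.39 (adjusted p = 0.012) and 2.48 (adjusted p = 0.00181).

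Ifit1, Ifit2 and Ifit3 were each at 0 in at least 1 sham library of monocyte-derived cells. Ifit1 stood at 7.99, 15.8, 0 and 40.1 CPM in sham, which rest on 3 counts, at 80.3, 33.3, 79.7 and 83.4 CPM at day 2 and at 122, 129, 98.7 and 72.4 CPM at day 14. From pooled counts it was 5.58 times (1.90 to 27.1) and 8.42 times (2.86 to 41.0) the sham level, with adjusted p-values of 0.0199 and 0.0058. Ifit2 stood at 0, 0, 72.8 and 205 CPM in sham, at 156, 54.6, 215 and 189 CPM at day 2 and at 475, 367, 431 and 354 CPM at day 14. The sham library of 205 CPM lay inside the range of day 2, where Ifit2 did not pass (log2 fold change 2.60 ± 0.81, adjusted p = 0.0709), and below all libraries of day 14 (3.94, adjusted p = 0.00758). Ifit3 stood at 17.1, 32.5, 70.9 and 0 CPM in sham, at 119, 60.2, 191 and 221 CPM at day 2 and at 304, 279, 359 and 213 CPM at day 14. It was 2.70 ± 0.63 (adjusted p = 0.0193) and 3.59 (adjusted p = 0.00279) above sham on the log2 scale. Usp18 rose from 0 to 35.1 CPM in sham to 42.8 to 141 CPM at day 2 (2.52 ± 0.67, adjusted p = 0.0361) and 115 to 248 CPM at day 14 (3.13, adjusted p = 0.0108).

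Ifi27l2a was already well detected in sham monocyte-derived cells, at 826, 720, 1129 and 1090 CPM, and stood at 1553, 830, 3010 and 1764 CPM at day 2 and at 1525, 1695, 2654 and 2362 CPM at day 14. Its log2 fold changes, 1.46 ± 0.37 (adjusted p = 0.03) and 1.61 ± 0.38 (adjusted p = 0.0199), were the smallest of the 8 in this type at day 14. The median log2 fold change over all genes of this type was 0.29 at day 2 and 0.28 at day 14, so the fold changes of the members include that shift. With scaling by library size alone these medians were -0.13 and -0.11, and 3 members were called at day 2. At day 2 the number of members called was 2, 3, 4 and 6 without sham replicates 1, 2, 3 and 4, and at day 14 it was 4, 7, 6 and 7. Without replicates 1, 2, 3 and 4 of stroke at day 2 it was 6, 8, 5 and 5. Rsad2 and Oasl2 kept their call at day 2 in all of these, and Ifit3, Isg15, Rsad2 and Oasl2 kept theirs at day 14. The call of Rsad2 between days 2 and 14 was lost without any 1 of replicates 2, 3 and 4 of day 2 or 1, 2 and 4 of day 14.

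In brain endothelial cells counts of all 8 genes were present in sham mice already, at the lowest levels for Ifit2 and Ifi27l2a, and no change at day 2 passed the test. None of 8 was called at day 2 by edgeR, against 13.3% of genes, and none by DESeq2; 1 member, Ifit3, had an unadjusted p under 0.05 (log2 fold change 1.04 ± 0.42, adjusted p = 0.11). Rsad2 stood at 81.1, 58.7, 152 and 66.0 CPM in sham and at 20.3, 47.8, 67.1 and 64.8 CPM at day 2, with overlapping ranges (log2 fold change -0.71). By mitochondrial share, in the endothelial libraries above 1% both stroke libraries lay above the 3 of sham for 6 of 8 members and below them for none, and in those under 1% both lay above the 1 sham library for 1 of 8 and below it for 6 of 8. The latter count rests on that single sham library, whose summed level of the members was the highest of sham (624 CPM, against 419 to 570.0 CPM in the other 3). The share of all genes separated in this way was not computed for either set, so no direction is read from these counts. With replicate 2 of day 2 left out, 1 member was called.

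At day 14 the endothelial levels were higher than in sham for most members, but no gene of any kind was called. None of 8 members and 0% of 5833 genes passed in edgeR, while DESeq2 called 1 member, and 6 members and 356 genes had an unadjusted p under 0.05. In 5 of 8 members every library of day 14 lay above every sham library, which held for 1.68% of genes. Isg15 stood at 231, 152, 116 and 156 CPM in sham, at 221, 137, 231 and 260 CPM at day 2 and at 419, 325, 421 and 319 CPM at day 14. The libraries of day 14 lay above all others (against sham 1.14 ± 0.23, adjusted p = 0.214). Ifit1 stood at 89.1, 58.7, 50.9 and 58.5 CPM in sham, at 72.0, 36.2, 101 and 128 CPM at day 2 and at 190, 165, 208 and 92.8 CPM at day 14. Its lowest library of day 14 was just above the highest of sham.

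Between day 2 and day 14 the endothelial cells gained 3 of the 8 members, where 11.2% of genes were called. Rsad2, which then stood at 246, 253, 128 and 107 CPM, rose by 1.81 ± 0.38 on the log2 scale (adjusted p = 0.00804), Oasl2 by 0.94 ± 0.27 (adjusted p = 0.0366) and Isg15 by 0.70 ± 0.22 (adjusted p = 0.0464). Rsad2 at day 14 lay above all libraries of day 2, as did Isg15 and Oasl2, and these 3 without overlap compare with 10.9% of genes. Oasl2 had been at 89.4, 28.4, 65.9 and 74.7 CPM at day 2 and reached 185, 124, 116 and 102 CPM. Leaving out replicate 2 or 3 of day 2, or any replicate of day 14, left 1 member called. The receptor chain gene Ifnar1 rose by 1.04 ± 0.23 (adjusted p = 0.0104) in the same comparison. Ifi27l2a was low in endothelial cells, at a median of 2.44% of the level in monocyte-derived cells at day 2 and 5.84% at day 14. The monocyte-derived marker list there stood at medians of 2.52% and 3.96%, reaching 18.2% in 1 library. The part of that list in the endothelial values was not tested.

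**Figure D2:**
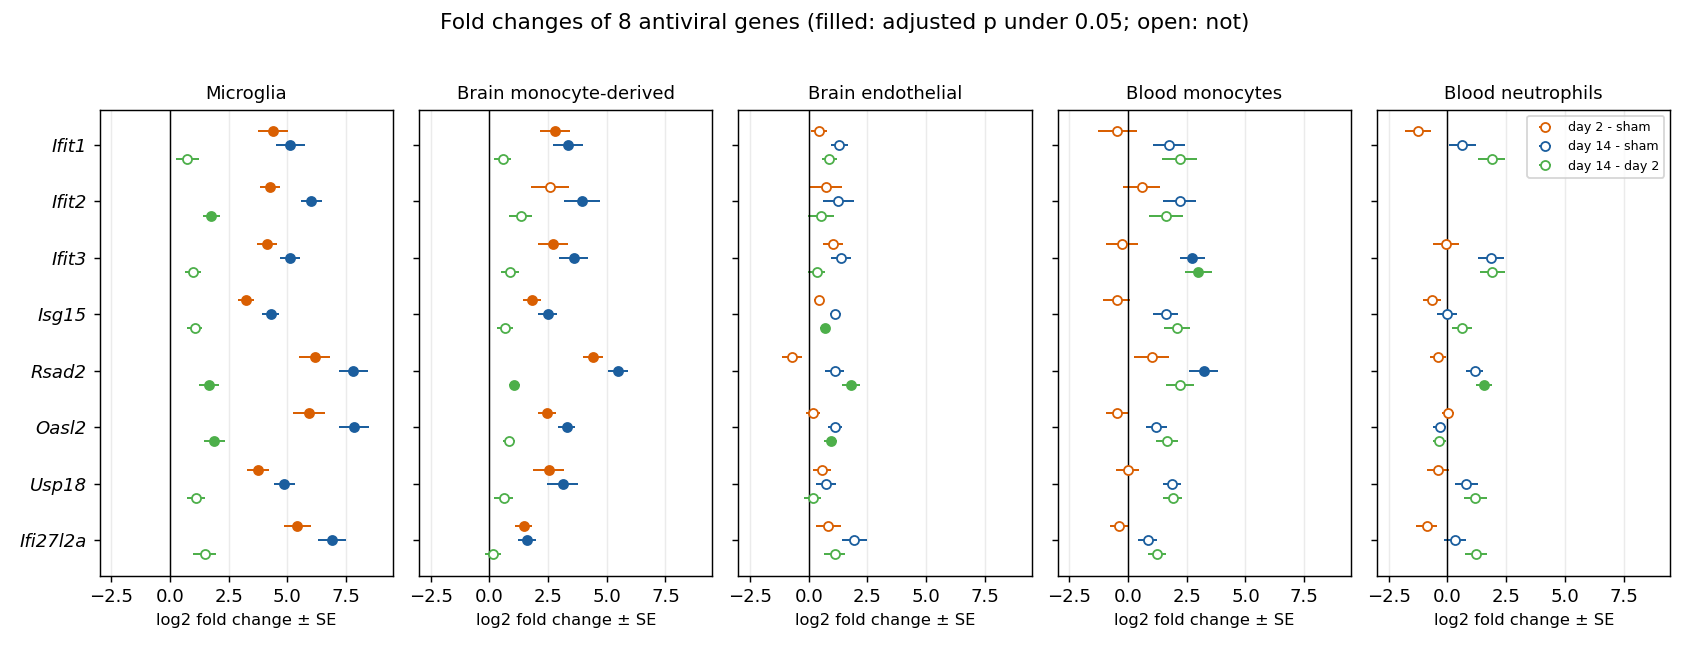
Each panel shows 1 of 5 cell types and each gene's log2 fold change on the x axis for day 2 against sham, day 14 against sham and day 14 against day 2, with its SE as a line; filled points have an adjusted p under 0.05. All microglial points against sham are filled and far to the right, and all endothelial points against sham are open.

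Border-associated macrophages, the resident macrophages of the brain's borders, were led by Ifi27l2a. It stood at 772, 570, 637 and 658 CPM in sham, at 1319, 2618, 7802 and 4387 CPM at day 2 and at 1609, 1316, 1834 and 1423 CPM at day 14. Both stroke groups lay above sham, and day 2 was by far the most uneven. Of the 3 members with enough counts to be tested, Ifi27l2a alone was called at day 2 (log2 fold change 2.59 ± 0.45, adjusted p = 0.013), where 2.67% of genes were. None was called at day 14, where 0.0762% of genes were, and none by DESeq2, while 2 had an unadjusted p under 0.05. For that last count no share of all genes is given, so no change is read from it. Leaving out sham replicate 2 or 3 ended the call of day 2 (adjusted p = 0.0877 and 0.0654), as did the replicate number as a block (0.0566). Isg15 stood at 289, 383, 425 and 459 CPM in sham and at 254, 152, 491 and 350 CPM at day 2, so the ranges overlapped and the mean was not higher at day 2. Oasl2 stood at 67.2, 36.9, 48.3 and 0 CPM in sham, at 166, 70.3, 234 and 99.6 CPM at day 2 and at 175, 487, 146 and 0 CPM at day 14. Its lowest library of day 2 lay just above the highest of sham, and it did not pass (1.60 ± 0.63, adjusted p = 0.157). Of the 5 members too low to test, Ifit1 reached at most 37.8 CPM in any library, Ifit2 154 CPM, Ifit3 154 CPM, Rsad2 164 CPM and Usp18 135 CPM. Of the 3 tested members, Oasl2 and Ifi27l2a lay above sham in every library of day 2, against 9.90% of the genes tested, and Ifi27l2a did at day 14, against 1.75%. Ifit3, which is not among the genes of those shares, also lay above sham in every library of day 2.

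In granulocytes sorted from brain, 4 members could be tested, and of these Isg15 and Rsad2 rose most by day 14. Isg15 stood at 197, 151, 170 and 154 CPM in sham, at 660, 221, 505 and 276 CPM at day 2 and at 2463, 1241, 1422 and 1691 CPM at day 14. The 3 groups did not overlap. It was 2.94 ± 0.40 above sham on the log2 scale at day 14 (adjusted p = 2.26e-05) and rose by 1.88 ± 0.38 between days 2 and 14 (adjusted p = 0.00813, 1 of 4 members against 4.23% of genes). Rsad2 stood at 31.3, 13.6, 80.5 and 112 CPM in sham, at 399, 221, 227 and 299 CPM at day 2 and at 939, 207, 1474 and 1099 CPM at day 14. Each stroke library exceeded each sham library, and replicate 2 of day 14 was the low one. Of the 4 tested members, Isg15 and Rsad2 did not overlap with sham at day 2, against 109 of the 994 genes tested (11%), and at day 14 Ifi27l2a did not either, against 19.9%. The log2 fold change of Rsad2 was 2.14 ± 0.58 (adjusted p = 0.0259) at day 2, the 1 of 4 members called against 8.35% of genes, and 3.78 ± 0.54 (adjusted p = 4.42e-05) at day 14. Ifi27l2a was the third of 4 called at day 14 (1.77 ± 0.53, adjusted p = 0.0183), where 26.1% of genes were. Oasl2, the other member tested, missed the threshold there (1.12 ± 0.45, adjusted p = 0.0791). Ifit1, too low to test, stood at 0, 8.47, 32.2 and 9.24 CPM in sham, at 37.1, 44.5, 47.6 and 141 CPM at day 2 and at 569, 92.2, 386 and 235 CPM at day 14. Its sham values rest on 3 counts, and its pooled ratio to sham was 34.8 (11.3 to 173) at day 14. Usp18 had 1 count in sham and a pooled ratio of 23.0 (3.45 to 977). Ifit3 reached 103 to 941 CPM at day 14 against at most 64.5 CPM in sham, and Ifit2 overlapped sham at 0 to 291 CPM. The call of Rsad2 at day 2 was lost without any 1 of sham replicates 1, 2 and 3 and of day 2 replicates 1 and 4, that of Ifi27l2a at day 14 without sham replicate 2 (adjusted p = 0.0706), and that of Isg15 between days 2 and 14 without day 2 replicate 4 (adjusted p = 0.0515). Among the alternatives other than leaving out a library, 1 call was lost in each of these comparisons.

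DC-coded cells of the brain had few counts of the members in sham. Oasl2 stood at 0, 15.6, 0 and 0 CPM in sham, at 199, 64.5, 128 and 60.3 CPM at day 2 and at 283, 151, 156 and 137 CPM at day 14. Usp18 stood at 14.1, 14.5, 0 and 26.7 CPM, at 111, 54.7, 145 and 125 CPM and at 146, 174, 248 and 103 CPM. These 2 of 8 were called at day 2 (adjusted p = 0.0316 and 0.0361), against 1.01% of genes. At day 2 every stroke library lay above every sham library for 6 of 8 members, all but Ifit1 and Ifit2, against 6.21% of genes, and at day 14 for 8 of 8, against 5.66%. Usp18 lost its call of day 2 with DESeq2 (adjusted p = 0.0532) and with the replicate number as a block (0.0649). From pooled counts, with 1 count of Oasl2 and 3 of Usp18 in sham, the ratios at day 2 were 26.6 (4.71 to 1055) and 7.61 (2.56 to 37.3). At day 14 6 of 8 were called against 1.53% of genes. Isg15 rose from 141, 204, 252 and 227 CPM in sham to 928, 678, 573 and 540 CPM (log2 fold change 1.77 ± 0.28, adjusted p = 0.00908). Rsad2 went from 13.8, 0, 0 and 0 CPM to 449, 183, 122 and 121 CPM, a pooled ratio of 46.5 (8.30 to 1839), and Ifit2 and Ifit3 were called with Oasl2 and Usp18, whereas Ifit1 and Ifi27l2a were not. None was called between days 2 and 14 by edgeR or DESeq2, where 0.893% of genes were, while 2 had an unadjusted p under 0.05. The share of all genes at that threshold is not given, and no change is read from this count. Without 1 library, 0 to 2 members were called at day 2 and 2 to 5 at day 14. Isg15 and Oasl2 kept their call at day 14 in each of these fits.

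Of the lymphocytes of the brain, T cells had 2 members that could be tested. Ifi27l2a stood at 413, 323, 519 and 498 CPM in sham, at 613, 498 and 1241 CPM in the 3 libraries of day 2 with enough cells and at 2456, 1628, 3934 and 2568 CPM at day 14. The day 14 libraries lay above all others, and both tested members lay above sham in every library of day 14, against 3.53% of the genes tested. Its log2 fold change at day 14 was 2.54 ± 0.37 (adjusted p = 0.0204), the 1 gene called of 1048 tested (0.0954%), and the call was lost without any 1 of the 4 sham libraries (adjusted p between 0.0612 and 0.0841). Isg15, the other member tested, stood at 80.4 to 260 CPM in sham, 119 to 624 CPM at day 2 and 302 to 631 CPM at day 14 and was not called (1.16 ± 0.53, adjusted p = 0.57, at day 14). The 6 members too low to test had means of 7.64 (Oasl2) to 109 CPM (Ifit2) in sham and 35.7 (Oasl2) to 143 CPM (Ifit3) at day 14. In B cells of the brain 1 member could be tested and was not called in edgeR or DESeq2, where 0% of genes were, although its unadjusted p was under 0.05 at day 14. No member had enough counts for a test in NK cells of the brain.

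**Figure D3:**
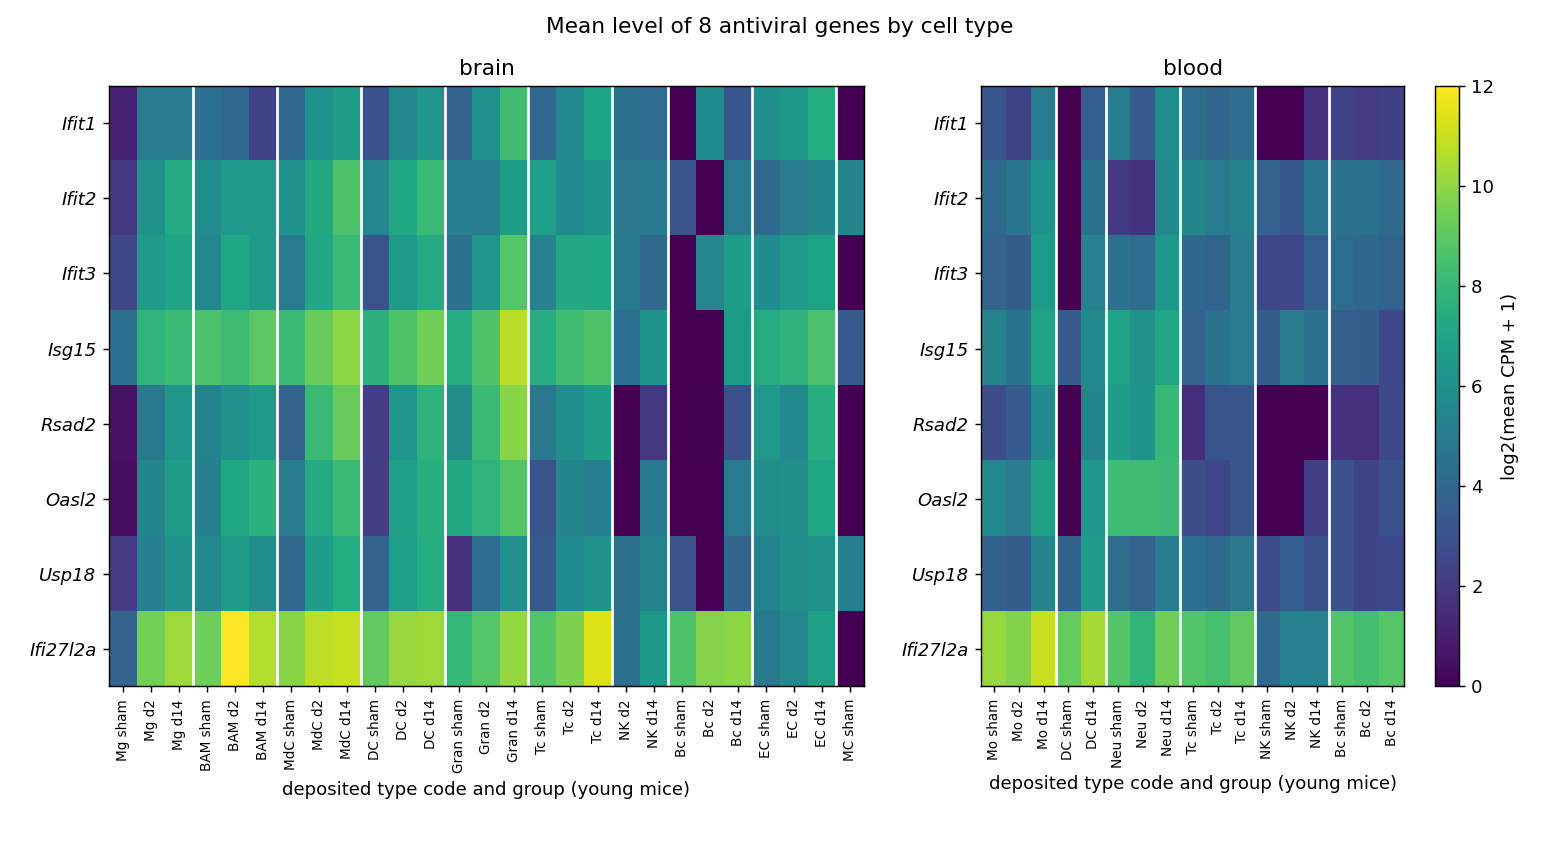
Heat map of log2(mean CPM + 1) for each gene in each cell type and group of young mice that had at least 2 libraries, in brain and blood. Dark cells are low and bright cells high: microglia turn from dark in sham to brighter at days 2 and 14 in every row, and Ifi27l2a is the brightest row in most columns.

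The order of the cell types shifted with time. The 8 genes' summed level, which is dominated by the counts of Ifi27l2a and serves only to describe the types, was lowest in microglia among the 9 brain types of sham mice with at least 2 libraries, at 47.9 ± 11.9 CPM (SD, n = 4). Mural cells followed at 88.3 ± 85.5 (n = 2), and endothelial cells stood at 519 ± 94.2, border-associated macrophages at 1302 ± 113 and monocyte-derived cells at 1387 ± 376 CPM (n = 4 each). The last 2 did not differ beyond their spread. At day 2 border-associated macrophages were at 4890 ± 3071, monocyte-derived cells at 3306 ± 1182 and microglia at 1231 ± 976 CPM. Without replicate 3 microglia were at 746 ± 130 CPM (n = 3), and with or without it their range overlapped that of endothelial cells (638 ± 226 CPM). At day 14 granulocytes, at 5098 ± 1691, and monocyte-derived cells, at 4895 ± 368 CPM, were at the top and did not differ beyond their spread, while microglia were at 2097 ± 554 and endothelial cells at 1200 ± 219 CPM.

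By gene, the type with the highest mean differed. In sham brain, endothelial cells were highest for Ifit1 (64.3 ± 16.9 CPM), Ifit3 (55.3 ± 31.0) and Rsad2 (89.4 ± 42.6), monocyte-derived cells for Ifi27l2a (941 ± 200), border-associated macrophages for Isg15 (389 ± 73.7) and Usp18 (49.9 ± 27.2), granulocytes for Oasl2 (157 ± 63.3) and T cells for Ifit2. The libraries of the leading type and of the next overlapped for all but Ifit1 and Oasl2. At day 14 granulocytes were highest for Ifit1 (321 ± 204 CPM), Ifit3 (459 ± 369), Isg15 (1704 ± 538), Rsad2 (930 ± 531) and Oasl2 (424 ± 212), monocyte-derived cells for Ifit2 (407 ± 56.5), DC-coded cells for Usp18 (168 ± 61.1) and T cells for Ifi27l2a. At that time the leading type and the next overlapped for all but Ifit2.

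The share of cells with at least 1 count of any member was compared after each cell was thinned to 500 counts, with shallower cells left out. In microglia it was 2.35% ± 0.396 (SD over libraries, n = 4) in sham, 23.3% ± 4.75 (n = 3) at day 2 and 49.9% ± 7.77 (n = 4) at day 14, and without thinning 2.26%, 36.1% and 57.5% of all cells pooled. Thinning kept 5169, 1933 and 3186 microglia and left out 5705, 760 and 1984, whose groups had median depths of 482, 972 and 687.5 counts. The shares of the 3 groups did not overlap between libraries. Monocyte-derived cells went from 30.0% ± 4.90 (n = 3) to 57.7% ± 12.5 (n = 4) and 72.4% ± 4.85 (n = 4), and endothelial cells from 20.5% ± 6.01 to 20.4% ± 4.21 and 35.0% ± 4.94 (n = 4 each). Cells with 2 or more members made up 0.123% of thinned microglia in sham, 4.56% at day 2 and 13.9% at day 14, and 2.77%, 21.7% and 39.1% of monocyte-derived cells. Interferon can induce these genes in any cell, so no type here could serve as one that lacks them. The lowest share of any type in blood, 1.97% ± 0.942 (n = 2) in NK cells at day 2 (median depth 440.5 counts), lay near that of sham microglia. These NK cells held counts of the members themselves, with Isg15 at 32.5 ± 9.51 CPM (n = 4), so their share does not measure background. Lacking a measure of background, the share of sham microglia is not read as expression.

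The finer codes that the authors deposited were drawn from all genes of the same cells, the members among them, so their levels are a description without a test. Within monocyte-derived cells the code MdC4 had a summed level of 10384 CPM at day 2 and 11444 CPM at day 14, against 1925 to 4611 CPM in the other codes after stroke. There Rsad2 averaged 1646 and 2060 CPM and Isg15 2463 and 2501 CPM at the 2 times. Codes of the same kind were DC6 (7576 and 11041 CPM), Gran2 (2232 and 8781 CPM), Tc3 (7877 CPM at day 14) and, in blood, Neu5 and Mo4. Endothelial code EC5 was high without stroke as well: it stood at 2493 CPM in sham, 3971 CPM at day 2 and 3152 CPM at day 14, against 344, 298 and 612 CPM in EC1. In microglia, Mg3 stood at 681 CPM in sham, 4207 CPM at day 2 and 2394 CPM at day 14. Other microglial codes moved too, since Mg1 went from 31.1 CPM in sham to 266 and 272 CPM and Mg5 from 251 to 648 and 2882 CPM.

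**Figure D4:**
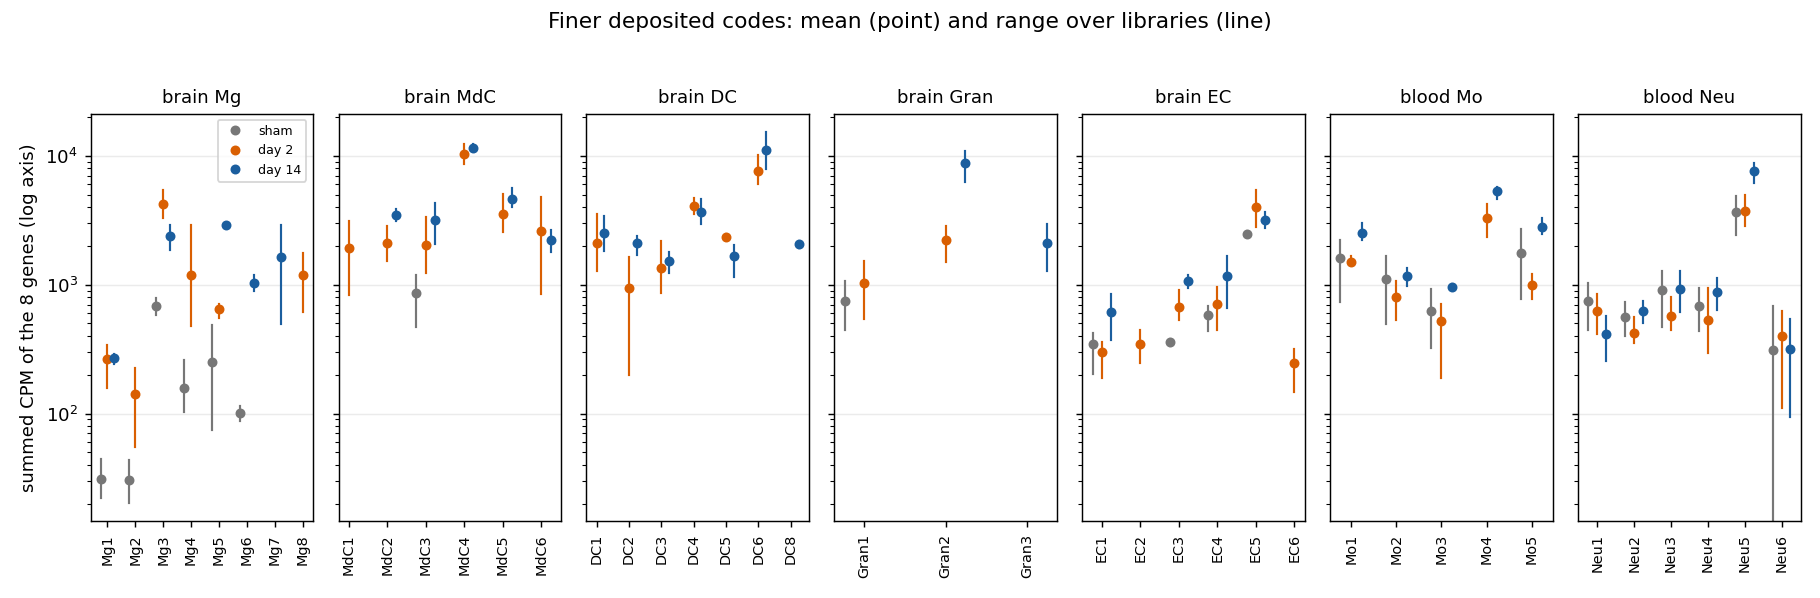
Summed CPM of the 8 genes on a log axis for each finer code with at least 2 libraries, with a point at the mean and a line over the range of the libraries of sham, stroke day 2 and stroke day 14. MdC4, DC6, Gran2 and EC5 in brain and Neu5 and Mo4 in blood stand above the other codes of their type.

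In blood monocytes and neutrophils no member was called at day 2. In monocytes none of 8 was called at day 2 by edgeR, none by DESeq2 and none had an unadjusted p under 0.05, and 0% of 6706 genes were called. At day 14 against sham Ifit3 and Rsad2 were called, 2 of 8 against 0.254% of genes, and every library of day 14 lay above every sham library for 8 of 8 members, against 3.64% of genes.

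Ifit3 stood at 3.89, 5.92, 17.4 and 28.5 CPM in sham monocytes, at 3.37, 8.92, 18.4 and 12.1 CPM at day 2 and at 133, 82.7 and 53.9 CPM at day 14. The log2 fold change at day 14 was 2.73 ± 0.53 against sham (adjusted p = 0.0365) and 2.999 ± 0.575 against day 2 (adjusted p = 0.0195), where 0.537% of genes were called and 7 of 8 members, against 5.49% of genes, did not overlap. Rsad2 stood at 0, 2.07, 4.58 and 17.5 CPM in sham, at 7.80, 6.79, 9.22 and 17.4 CPM at day 2 and at 71.4, 46.0 and 47.7 CPM at day 14. It was 3.22 ± 0.62 above sham (adjusted p = 0.0365) and 2.22 ± 0.59 above day 2 (adjusted p = 0.138). Usp18 stood at 8.89, 7.33, 17.5 and 14.5 CPM in sham and at 51.1, 53.2 and 30.5 CPM at day 14 and missed the threshold (1.88 ± 0.39, adjusted p = 0.0551). Isg15 stood at 12.001, 9.08, 79.3 and 59.5 CPM in sham, at 37.1, 8.93, 20.0 and 30.9 CPM at day 2 and at 161, 110 and 93.9 CPM at day 14.

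Sham replicates 3 and 4 lay above replicates 1 and 2 for 7 of the 8 members in monocytes, Rsad2 and Isg15 among them. The remaining members were higher at day 14 by log2 values of 1.74 ± 0.68 for Ifit1, 2.19 ± 0.71 for Ifit2, 1.60 ± 0.53 for Isg15, 1.202 ± 0.446 for Oasl2 and 0.84 ± 0.40 for Ifi27l2a, with adjusted p-values between 0.434 and 0.924. Ifi27l2a was well detected in every group, at 704, 485, 1598 and 1724 CPM in sham, 1034, 403, 1008 and 939 CPM at day 2 and 2452, 1995 and 1773 CPM at day 14. Leaving out sham replicate 1 or 2, or replicate 1 or 2 of day 14, left no member called against sham, and leaving out replicate 3 of day 14 left 1. Fitted on the compared groups alone, none was called against sham and 6 were against day 2. Against day 2, none was called without replicate 1, 2 or 4 of day 2 or replicate 1 or 2 of day 14.

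**Figure D5:**
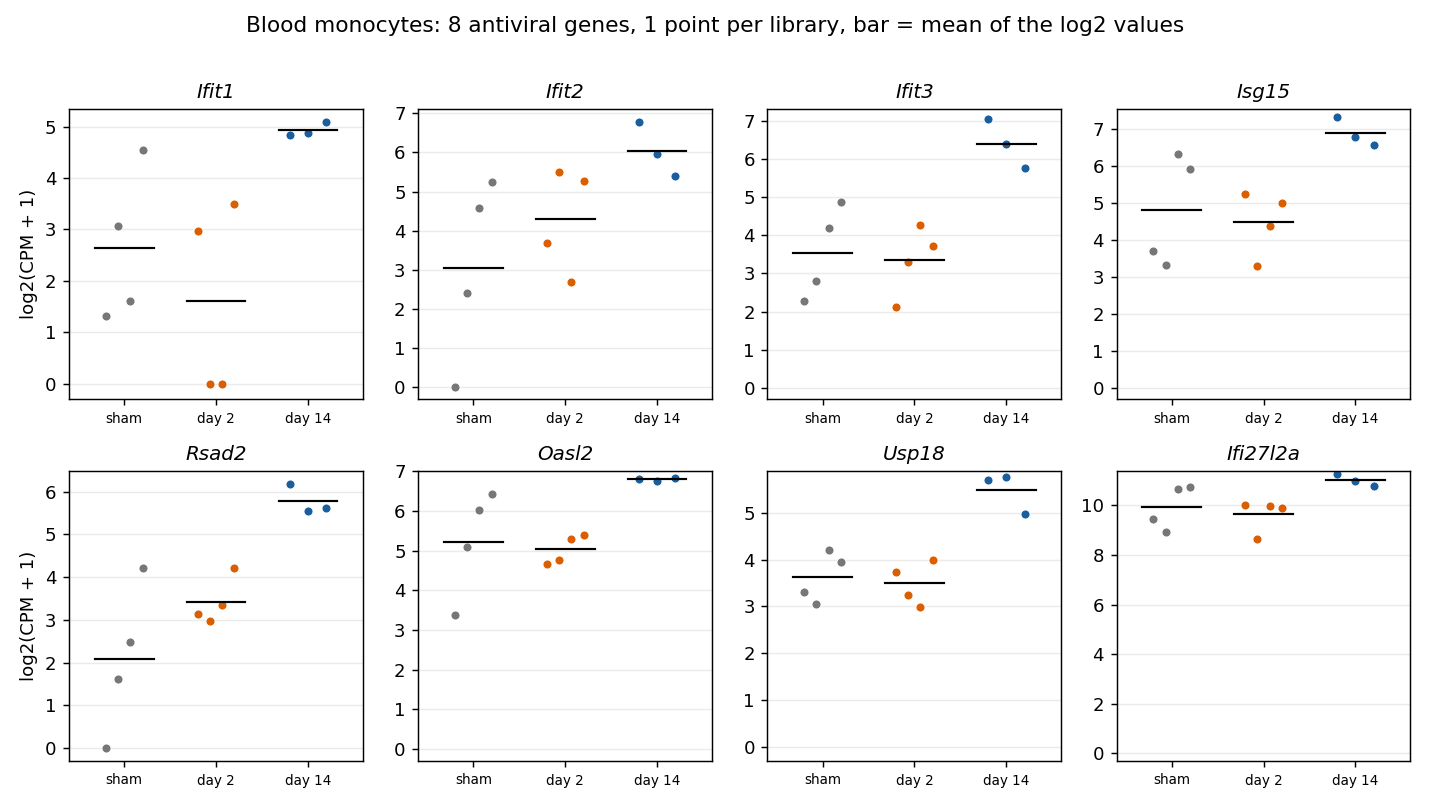
Each panel shows 1 gene in blood monocytes, with log2(CPM + 1) on the y axis, 1 point per library and a bar at the mean for sham day 2 (4 libraries), stroke day 2 (4) and stroke day 14 (3). The day 14 points lie above all sham points in all 8 panels, and day 2 overlaps sham.

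In blood neutrophils 7 members could be tested. None was called at day 2 by edgeR or DESeq2, against 0% of 4944 genes, and 1, Ifit1, had an unadjusted p under 0.05 (log2 fold change -1.25 ± 0.55, adjusted p = 0.997). At day 14 against sham none was called in edgeR, where 5.99% of genes were, and 2 were called in DESeq2. Ifit3 (1.85 ± 0.55, adjusted p = 0.0577) and Rsad2 (1.16 ± 0.35, adjusted p = 0.0652) had an unadjusted p under 0.05, and of the tested members these 2 did not overlap with sham, against 18.9% of genes. Against day 2, all tested members but Oasl2 lay higher in every library of day 14, against 16.7% of genes. Ifit2, too low to test, lay higher at day 14 than in both other groups without overlap. Rsad2 stood at 46.0, 62.1, 112 and 191 CPM in sham, at 76.8, 52.4, 103 and 59.5 CPM at day 2 and at 275, 226 and 295 CPM at day 14. It was 1.55 ± 0.35 higher at day 14 than at day 2 (adjusted p = 0.0181, 1 of 7 against 4.69% of genes). Oasl2 did not follow the others: it stood at 166, 327, 327 and 396 CPM in sham, at 331, 310, 401 and 182 CPM at day 2 and at 379, 197 and 312 CPM at day 14. Leaving out sham replicate 3, sham replicate 4 or day 14 replicate 2 gave 1, 2 and 1 calls against sham. The call of Rsad2 against day 2 was lost without day 14 replicate 1 or 3, and 2 members were called without replicate 2.

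The fine code Neu5 had the highest level of the members in neutrophils. Its summed level was 3664 CPM in sham, 3707 CPM at day 2 and 7679 CPM at day 14, while the other neutrophil codes lay between 310 and 928 CPM. Neu5 made up 3.43% to 16.6% of the neutrophils of a library and held 24.2% to 54.2% of their member counts in sham, 26.2% to 35.3% at day 2 and 51.2% to 62.2% at day 14. In blood T and B cells no member was called at either time by edgeR or DESeq2. The share of genes called was 0% in T cells at both times, and in B cells 0% at day 2 and 0.0114% at day 14. DC-coded cells of blood had 1 member that could be tested at day 14, Ifi27l2a, which was not called by edgeR (1.09 ± 0.41, adjusted p = 0.428, against 0.36% of genes) or DESeq2, with an unadjusted p under 0.05. One tested member, Isg15 in T cells at day 14, had an unadjusted p under 0.05 (1.24 ± 0.53).

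In aged mice the microglial response was also present at day 2. Isg15 stood at 24.1 and 29.6 CPM in the 2 aged sham libraries and at 333, 179 and 157 CPM in the 3 of stroke. Ifi27l2a stood at 106 and 124 CPM and at 1221, 582 and 874 CPM, and Rsad2 at 4.64 and 15.1 CPM and at 97.4, 39.0 and 30.2 CPM. All 8 members lay above sham in every stroke library, against 16.6% of genes, and 8 of 8 were called, against 2.3%, with log2 fold changes between 2.79 ± 0.58 (Ifit3) and 3.75 ± 0.82 (Ifit1) and adjusted p-values between 0.00805 and 0.0401. The calls were lost without either aged sham library, where 0 members were called, and without 1 of the female stroke libraries, replicate 1f, 1 was called. Fitted on the 2 aged groups alone, none was called. The sexes were unevenly mixed, with 1 male and 1 female sham library against 1 male and 2 female stroke libraries, and with sex as a covariate 7 of 8 were called, since Rsad2 lost its call (adjusted p = 0.0636). The single aged library of day 14 stood at 139 CPM for Isg15, 1161 CPM for Ifi27l2a and 37.7 CPM for Rsad2.

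The aged tables differed from the young ones in more than age and sex: 0.531% to 4.47% of their values were whole numbers, against 0.0388% to 0.222% in young brain, and they listed more genes, as given above. How the tables were made and age cannot be told apart where the 2 are set side by side. Aged sham microglia lay above young sham microglia for 7 of 8 members without overlap, against 6.43% of genes, but none was called. The smallest adjusted p was that of Ifi27l2a (115 ± 12.6 CPM, n = 2, against 14.2 ± 7.37, n = 4), with a log2 fold change of 3.03 ± 0.53 (adjusted p = 0.0825). Ifit2 was at 15.7 and 26.7 CPM in aged sham and Ifit3 at 14.3 and 41.0 CPM. An unadjusted p under 0.05 was found for 6 members, for which no share of all genes is given. By adjusted p, 0.018% of all genes were called in edgeR and DESeq2 called 2 members, while 1 was called without young sham replicate 1. The difference between the responses of aged and young microglia did not pass for any member (interaction between -3.13 ± 1.09 for Rsad2 and -0.07 ± 0.55 for Isg15, adjusted p of 0.768 or more, 0% of genes called, and none by DESeq2). Rsad2, Oasl2 and Ifi27l2a had an unadjusted p under 0.05 there. Without replicate 3 of young stroke day 2 the interaction was -3.18 for Rsad2 and -1.81 for Ifi27l2a, with adjusted p-values of 0.751 or more.

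Of the other aged cell types, monocyte-derived cells had 2 of 8 members called at day 2, against 2.56% of genes. Isg15 stood at 165 and 70.0 CPM in aged sham and at 1116, 417 and 795 CPM in stroke (log2 fold change 3.34 ± 0.68, adjusted p = 0.0167). Rsad2 stood at 27.4 and 34.9 CPM and at 669, 183 and 279 CPM, with 2 counts in sham, a pooled ratio of 12.6 (3.49 to 105) and an adjusted p of 0.0136. Of the other 6, Ifit1 and Ifit3 had no count in sham, and their pooled levels were at least 2.38-fold and at least 3.97-fold higher after stroke (against 3 counts over the sham group). Their fitted adjusted p-values were 0.0929 and 0.0828, and those of Ifit2, Oasl2, Usp18 and Ifi27l2a were 0.139, 0.0659, 0.345 and 0.197. Both calls were lost without either sham library, and 5 members were called without the male stroke library. In aged endothelial cells none of 8 was called by edgeR or DESeq2, against 0.606% of genes, and 1 had an unadjusted p under 0.05.

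The rest of the interferon pathway was followed with a list of 77 genes. Of its 9 ligand genes 6 were not among the genes measured in any library, namely Ifna1, Ifna2, Ifna4, Ifne, Ifnl2 and Ifnl3. Nothing can be said of their levels. Ifnb1 was measured in brain, Ifng in brain and blood and Ifnk in aged brain alone. One test of a ligand could be made, that of Ifng in NK cells of the brain between days 2 and 14, and it was not called (log2 fold change -1.51). Ifnb1, the interferon beta gene, had 228 counts over the young brain types, of which 102 were in monocyte-derived cells at day 2 (10.1 ± 9.20 CPM, n = 4) and 42 in microglia at day 14 (5.96 ± 4.45 CPM). The highest mean of Ifnb1 in any young brain type and group was 48.5 CPM, above both of these means. Ifng had 106 counts in brain and 49 in blood, with its highest mean in NK cells of the brain at day 2 (284 ± 67.5 CPM, n = 2). Both receptor chains were detected in the responding types. Ifnar2 stood at 272 ± 16.6 CPM in sham microglia and 291 ± 20.1 CPM at day 14, where it was called with TMM scaling (log2 fold change 0.56, adjusted p = 0.0315) and not with library size alone (0.11, adjusted p = 0.585). Ifnar1 fell in endothelial cells from 357 ± 58.1 CPM in sham to 187 ± 46.7 CPM at day 2 (log2 fold change -0.83 ± 0.23, adjusted p = 0.0287). Of 5 receptor genes tested in microglia, Ifngr1, a chain of the interferon gamma receptor, fell by 1.36 ± 0.26 at day 2 (adjusted p = 0.00199) and by 0.89 at day 14 (adjusted p = 0.0296).

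Among 13 signalling genes in microglia, 3 rose and 1 fell at day 2 and 3 rose at day 14, which is 30.8% and 23.1% of them, against 31.4% and 15.2% of all genes called. The share at day 2 was thus near that of all genes. Without replicate 3, 3 signalling genes rose and 1 fell at day 2 as well. Irf7, the amplifying transcription factor, rose by 4.16 ± 0.40 (adjusted p = 2.13e-05) and 5.89 ± 0.40 (adjusted p = 1.77e-06). Stat2 rose by 0.78 (adjusted p = 0.0379) and 1.95, while the kinase Jak1 fell by 1.24 at day 2 (adjusted p = 0.0211). Of 11 sensors 2 rose and 3 fell at day 2 (45.5% called), and 2 rose and 2 fell without replicate 3. The nucleic acid sensor Zbp1 rose by 6.07 ± 0.56 (adjusted p = 1.54e-05), and the endosomal receptors Tlr3 and Tlr7 fell by 0.90 and 0.81 and Tmem173 (STING) by 0.71. Of 31 other antiviral effectors 20 rose and 2 fell at day 2 and 25 rose at day 14 (71.0% and 80.6% called), with median log2 fold changes of 1.77 and 2.87, against -0.05 and -0.04 over all genes. Without replicate 3, 19 of them rose and 1 fell at day 2, with a median of 1.75. Among them Bst2 (tetherin) rose by 2.46 ± 0.28 at day 2 and Lgals3bp by 4.77 ± 0.35 at day 14 (adjusted p = 6.74e-05 and 1.88e-06), whereas Slfn8 fell by 1.01 at day 2 (adjusted p = 0.0418). Without replicate 3 of day 2, Irf7 rose by 4.07, Zbp1 by 5.96, Bst2 by 2.29 and Stat2 by 0.80, Jak1 fell by 1.24, Ifngr1 by 1.23, Tlr7 by 0.73 and Tmem173 by 0.62, and all 8 kept their call, while Tlr3 (adjusted p = 0.0566) and Slfn8 (adjusted p = 0.0695) lost theirs.

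Over the whole list, 60 genes were tested in microglia. At day 2 25 rose and 7 fell, with a median of 0.22 against -0.05 over all genes, and at day 14 31 rose and 1 fell, with a median of 1.04 against -0.04. Between the 2 times 20 rose and none fell. Called in either direction were 53.3% of the list at day 2 against 31.4% of all genes, 53.3% at day 14 against 15.2%, and 33.3% between the times against 6.93%. Without replicate 3 of day 2, 24 rose and 5 fell at day 2, where 27.5% of 11084 genes were called, and 17 rose and none fell between the times, where 6.63% were. Scaled by library size alone instead of TMM, the median over all genes moved to -0.22 and -0.49 at days 2 and 14, and no member or called gene of the list changed direction. Of the 32 called genes of the list 3 lost their call at day 2, Stat2 among them (adjusted p = 0.0775), and of the 32 at day 14 4 did. Of the 20 called between the 2 times 7 did. In monocyte-derived cells 16 of 60 rose and none fell at day 2 (26.7% called, against 6.71% of all genes). At day 14 33 rose and none fell (55.0%, against 5.15%; median 1.74 against 0.28 over all genes), with Irf7 up by 2.61 ± 0.46 (adjusted p = 0.00337). Scaled by library size alone, 8 of the 16 and 12 of the 33 lost their call. In endothelial cells, of 41 tested, 3 rose and 2 fell at day 2, none was called at day 14, and 8 rose and 1 fell between days 2 and 14. The 12.2% called at day 2 compare with 13.3% of all genes and the 22.0% between the times with 11.2%. In blood, 1 of 53 rose in monocytes at day 14, Lgals3bp (2.16 ± 0.41, adjusted p = 0.0365), which is 1.89% of the list against 0.254% of all genes. In neutrophils 2 of 42 rose and 1 fell (7.14% called, against 5.99% of all genes). In aged microglia 11 of 58 rose at day 2 and none fell (19.0% called, against 2.3% of all genes).

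The genes most like the members were found by correlating log2(CPM + 1) with the members' mean over library-by-type sums, which share libraries and depth. Over 102 brain sums of 11 types and 6885 genes these were Slfn5 (r = 0.82), Ifit3b (0.78), Rtp4 (0.72), Cmpk2 (0.70), Zbp1 (0.65), Isg20 (0.64), Trim25 (0.64), Irf7 (0.64), Xdh (0.63) and Cstb (0.63). Over 72 blood sums of 9 types and 6476 genes they were Rtp4 (0.76), Isg20 (0.74), Il6ra (0.71), Irf7 (0.69), Dynlt1-ps1 (0.68), Irgm2 (0.67), Klra2 (0.66), Retreg1 (0.66), Tlr2 (0.66) and Gm34084 (0.66). Rtp4, Isg20 and Irf7 were in both. Each member was set against the mean of the other 7 in the same way. In brain the correlation was 0.80 for Isg15, Rsad2 and Oasl2 and lowest, at 0.46, for Ifi27l2a, and in blood it was 0.83 for Ifit1 and lowest, at 0.41, for Ifit2.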

How the data were processed

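Drop-seq libraries of mouse brain and blood were analysed from the authors' deposited tables. The deposited values are estimated counts per gene and cell, which need not be whole, and the deposited cell tables give the cell codes, the count of detected genes per cell and the percent of mitochondrial counts. The submitters' processing notes name Seurat and mm10, and the aligner and counting settings were not given in the sources used here. All deposited cells were kept and no doublet caller was run.

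Counts were summed per library and coarse type code where a library held at least 20 cells, rounded, and tested with edgeR 4.0.16 (quasi-likelihood fit, TMM scaling, low-count filter by group, Benjamini-Hochberg adjustment over all genes tested, at least 2 libraries per group) in R 4.3.3, with all groups of one age or tissue in a fit and the young and aged brain groups of day 2 together (13 libraries) for the aged comparisons. DESeq2 1.42.0, library size alone, no filter, a minimum of 50 cells, rounding up per cell, only the compared groups, the replicate number as a block, sex as a covariate (aged groups) and leaving out each library were alternatives. The mitochondrial share as a term was added after seeing the data. Counts of members with an unadjusted p under 0.05 are given without the share of all genes at that threshold, except in endothelial cells at day 14. Where that share is missing, no change is read from such a count. Levels are counts scaled to a common total (CPM) with the SD over libraries, and counting intervals cover counting error only. Nothing in the labels says that animals were shared between libraries, and p-values measure the spread between pooled libraries.

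All 8 members could be named in every comparison; those not named beside a result are given by counts or ranges. Of the interferon list, up to 5 called genes per role with the highest mean level could be named, and the genes most like the members are the 10 with the highest correlation among genes of at least 20 CPM. The members and lists were chosen with earlier results of these data known. Promoter sequences are RefSeq's, GRCm38.p6. The fitting code was tested on simulated data.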

Additional observations from a re-analysis of the deposited data

Results flagged for a closer look

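One library lay apart from the other 3 of its group, by Dixon's test at a critical value of 0.829, in 18 of 152 sets. Each set held the 4 values of 1 member in 1 type and group, so the same libraries recur over the members. Where the other 3 were at 0 CPM, as for Rsad2 in sham microglia, any value above 0 is flagged by construction. The number of flags is therefore not set against chance. In microglia the flagged libraries were sham replicate 4 for Ifit2 (6.21 CPM), sham replicate 3 for Rsad2 (1.94 CPM), sham replicate 2 for Oasl2 (1.54 CPM), day 14 replicate 2 for Ifit2 (lowest, 88.1 CPM), day 14 replicate 1 for Rsad2 (128 CPM) and day 2 replicate 3 for Isg15 (462 CPM), the library of 58 cells. In monocyte-derived cells it was day 2 replicate 2 for Ifit1 (lowest, 33.3 CPM). In DC-coded cells of the brain they were sham replicate 2 for Ifit3 (31.3 CPM), sham replicate 1 for Rsad2 (13.8 CPM), sham replicate 2 for Oasl2 (15.6 CPM) and day 14 replicate 1 for Oasl2 (283 CPM).

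In brain granulocytes they were sham replicate 3 for Ifit2 (145 CPM), sham replicate 2 for Usp18 (8.48 CPM), day 14 replicate 2 for Usp18 (lowest, 0 CPM), day 2 replicate 4 for Ifit1 (141 CPM) and day 2 replicate 3 for Usp18 (71.1 CPM). In blood they were day 2 replicate 2 of monocytes for Ifi27l2a (lowest, 403 CPM) and sham replicate 3 of neutrophils for Ifit2 (10.9 CPM). Several of the sham values rest on 1 to 3 counts.

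The level differed between days 14 and 2 after stroke by the edgeR test for 10 pairs of gene and type. On the log2 scale the rise was 1.77 for Ifit2, 1.65 for Rsad2 and 1.89 for Oasl2 in microglia, and 0.70 for Isg15, 1.81 for Rsad2 and 0.94 for Oasl2 in endothelial cells. It was 1.06 for Rsad2 in monocyte-derived cells, 1.88 for Isg15 in brain granulocytes, 1.55 for Rsad2 in blood neutrophils and 2.999 for Ifit3 in blood monocytes.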

How the results depend on the processing

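Over all alternatives, 1020 values were computed for the 67 called pairs of member and comparison: 835 kept the call, 185 lost it and 0 reversed. For microglia against sham at days 2 and 14, 256 of 256 kept it. Where every library of a type held at least 50 cells, the values at that minimum repeat the main ones and could not lose the call. The number of all genes called moved as well. For microglia at day 14 against day 2 it was 703 in the main fit, 426 to 1157 over the other alternatives and 276 to 735 without 1 library. In aged against young sham microglia it was 2 and 1 to 123, and in blood monocytes at day 14 against sham 17 and 13 to 97. No share of all genes is given beside the counts below, so none is read as particular to the members. Counts of called members changed as follows, and the cause was not tested. With DESeq2, microglia at day 14 against day 2 had 6 (3 in edgeR), aged against young sham 2 (0), endothelial cells at day 14 against sham 1 (0), monocyte-derived cells at day 14 against day 2 2 (1), neutrophils 2 against sham (0) and 3 against day 2 (1), and the other brain types 3 at day 14 against day 2 (1). With counts rounded up per cell these were 6 for microglia, 1 for aged sham, 2 for neutrophils and 2 for other brain types against day 2, and endothelial cells had 1 at day 2 (0) and monocytes 1 at day 14 (2). With no filter, aged sham had 5, endothelial cells 1 at day 14 against day 2 (3), monocyte-derived cells 0, aged monocyte-derived cells 6 (2), neutrophils 3 and 5, monocytes 7 (2) and 8 (1), other brain types 7 at day 2 (3) and other blood types 1 at day 14 (0). With only the compared groups, aged microglia had 0 (8), aged sham 1, endothelial cells 1, monocyte-derived cells 0 and aged ones 0, neutrophils 4, monocytes 0 and 6 and other brain types 1 at day 2. With library size alone, monocyte-derived cells had 3 at day 2 (7), aged ones 0, neutrophils 2 and 3, monocytes 2 against day 2 and other brain types 2. With at least 50 cells, monocyte-derived cells had 0 and other brain types 2 against day 2. With the mitochondrial share as a term, chosen after seeing the data, microglia had 5, monocyte-derived cells 2 and other brain types 2 against day 2. The replicate block gave 4 members in monocyte-derived cells at day 14 against day 2, 0 in border-associated macrophages at day 2 (1), 2 and 4 in neutrophils, 3 in monocytes against day 2, 2 in other brain types against day 2 and 1 in other blood types at day 14. The labels do not say what a replicate number shares, and the samples were not taken as paired in the main fits. Whether same-numbered libraries have a shared source was not tested. Their correlation was -0.37 to 0.64 in microglia (5 of 12 pairs over 0.1, 6 of 12 libraries closest to their own number), against -0.63 to 0.42 between other numbers. It was -0.11 to 0.58 in endothelial cells (6 and 7 of 12), against -0.46 to 0.35. In monocyte-derived cells it was -0.09 to 0.80 (5 and 8 of 12), against -0.66 to 0.52. The mitochondrial share was under 1% in replicates 1 and 2 and above it in 3 and 4 of both stroke groups, but under 1% in replicate 1 alone of sham. Leaving out 1 library gave 0 to 5 for microglia at day 14 against day 2, 0 to 8 for aged microglia, 0 to 1 for aged sham, 0 to 1, 0 and 1 to 3 for endothelial cells at day 2, day 14 and between them, 2 to 8, 4 to 8 and 0 to 1 for monocyte-derived cells, 0 to 5 for aged ones, 0 to 1 for border-associated macrophages, 0 to 2 and 0 to 2 for neutrophils, 0 to 2 and 0 to 1 for monocytes, 0 to 3, 6 to 12 and 0 to 2 for other brain types and 0 to 1 for other blood types. Thinned to 300 counts, the share of cells with a member was 1.40% in sham and 38.0% in day 14 microglia, 13.1%, 15.1% and 25.3% in endothelial cells, 24.4% in sham and 61.9% in day 14 monocyte-derived cells, 20.7% and 40.7% in monocytes at days 2 and 14 and 16.7% in neutrophils at day 2. A fit by technical batch was not run, since the labels name none. The sham levels of Rsad2 and Oasl2 in microglia rest on 2 and 3 counts.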
